A study of Caenorhabditis elegans with 2 samples.

Results

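The aminoacyl-tRNA synthetase genes of Caenorhabditis elegans were examined for peaks of the homeodomain protein CEH-45 in a chromatin immunoprecipitation sequencing (ChIP-seq) experiment. A gene was a member where it codes for protein on a nuclear chromosome and its symbol is 1 letter for the amino acid followed by "ars" and a number, which gave 33 members of 19973 nuclear protein-coding genes. There was a single group, made of 2 biological replicates, with nothing to compare it against. The peak lists carry no read counts, so how deeply each library was sequenced is unknown. The embryos were of strain RW12292, genotype st12292[ceh-45::TY1::EGFP::3xFLAG] I, in which genome editing with CRISPR inserted a GFP and epitope tag at ceh-45, so CEH-45 was followed as a tagged protein in every library. Whole late embryos with a labelled age of 2 hours were obtained by egg bleaching, and chromatin was sonicated to fragments in a range of 200 to 800 bp. One label gives an antibody against GFP for the precipitation and another names ceh-45 as the antibody. All cell types of the embryo were pooled in such a preparation, so signal from a few cells and weak signal from many cannot be told apart.

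An aminoacyl-tRNA synthetase joins 1 kind of amino acid to the transfer RNAs that carry it, and the ribosome depends on the charged tRNAs these enzymes make. Mitochondria translate their own genome and need charged tRNAs of their own, so animals have a cytosolic and a mitochondrial set of synthetases, in part from separate genes and in part from 1 gene that serves both compartments. CEH-45 belongs to the goosecoid class of homeodomain proteins, which is known for binding the word TAATCC. Among the members 16 were classed as cytosolic, 13 as mitochondrial and 4 as serving both compartments (gars-1 for glycine, hars-1 for histidine, kars-1 for lysine and tars-1 for threonine). The RefSeq product names the compartment for 14 members, 9 cytosolic and 5 mitochondrial, and known roles were used for the other 19.

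A peak of the larger thresholded set, the authors' list of sites that passed their reproducibility step, lay near a transcript start of 1 of the 33 synthetase genes. That gene was ears-2, which codes for the mitochondrial glutamate enzyme, and 3.03% of the members stand beside 2.15% of all protein-coding genes (429 of 19973). The peak lay at the short gap between ears-2 and uncp-18, 2 genes that are read away from each other. The 91 bp between their annotated starts are shown because the peak summit falls in them. The word CGCAA, chosen after the ears-2 sequence had been seen, is in capitals on either strand. Beside the ears-2 sequence are the summit windows of qars-1 and rars-1, the 2 other members whose window holds more than 1 CGCAA. That of tars-1, which has the third highest signal and no such word, is shown too. The window of nars-1, which has the second highest signal, holds the word and is not shown.
ears-2, 91 bp between the 2 starts, chrIV:390469-390559, plus strand: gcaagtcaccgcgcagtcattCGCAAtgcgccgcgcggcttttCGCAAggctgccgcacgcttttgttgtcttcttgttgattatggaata
qars-1, 50 bp either side of the summit, chrIV:15012272-15012372, plus strand: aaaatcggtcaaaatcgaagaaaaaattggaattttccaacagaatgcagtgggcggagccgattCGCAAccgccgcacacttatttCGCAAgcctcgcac
rars-1, 50 bp either side of the summit, chrIII:4918125-4918225, plus strand: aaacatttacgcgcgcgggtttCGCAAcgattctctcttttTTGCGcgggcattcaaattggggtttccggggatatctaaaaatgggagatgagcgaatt
tars-1, 50 bp either side of the summit, chrII:11694595-11694695, plus strand: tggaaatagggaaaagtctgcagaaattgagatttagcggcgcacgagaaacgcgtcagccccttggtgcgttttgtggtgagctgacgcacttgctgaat

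The 91 bp of ears-2 hold 2 copies of CGCAA in the same direction with 17 bp between them. The qars-1 window, which lies in an intron of the cytosolic glutamine enzyme's gene, also holds 2 copies in the same direction 17 bp apart. In rars-1, the cytosolic arginine enzyme's gene, the 2 copies face opposite ways. The signals at these windows were 242 for ears-2, 28.9 for qars-1 and 25.4 for rars-1, so windows with repeated copies of the word had signals on both sides of the median of all genes, 30.2. Only the ears-2 site is a peak of the larger thresholded set. The sites of qars-1 and rars-1 did not pass the authors' reproducibility step. The coordinates are on build ce11, and the letters were read from the RefSeq copy of the same assembly.

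**Figure D1:**
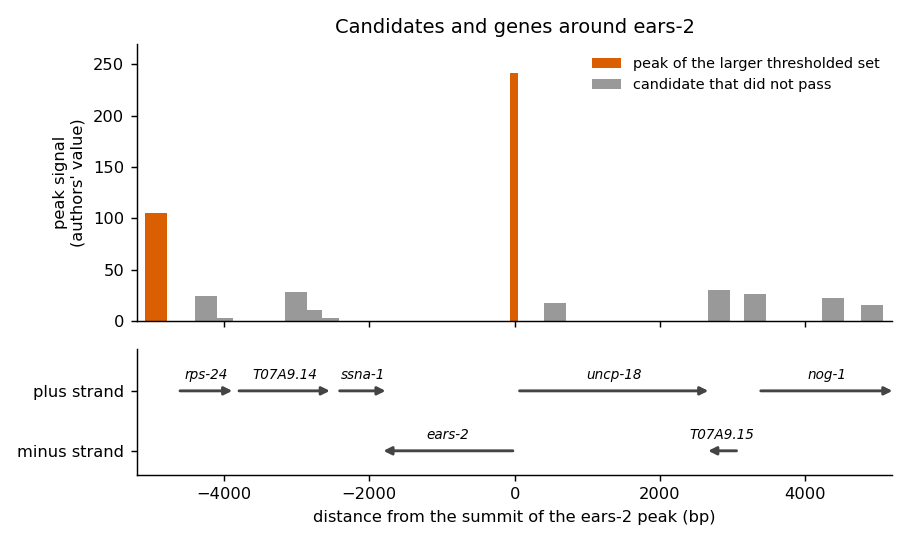
Candidates (bars, authors' peak signal) and protein-coding genes (arrows, 5′ to 3′) by distance in bp from the summit of the ears-2 peak in the larger list. The ears-2 peak, signal 242, is narrower than the other candidates, and the other passing peak shown, signal 105, lies beyond the start of rps-24.

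In the larger list the ears-2 peak spans chrIV:390429-390541 with its summit at base 390492, 24 bp upstream of the ears-2 start and 68 bp upstream of the uncp-18 start. ears-2 (WBGene00001338) is on the minus strand at chrIV:388686-390468, so 40 bases of the peak lie within the gene. The summit lies outside protein-coding genes. The signal, the authors' deposited peak value, was 242, and the irreproducible discovery rate (IDR), which estimates how many peaks as strong as this would fail to repeat, was 0.000131. By signal the peak was number 12 of 548 in the larger set and number 13 of 463 in the conservative set, and ears-2 was number 16 among 17997 genes by highest signal.

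Each replicate's own thresholded set held the peak too. The signal was 137 in replicate 1 and 107 in replicate 2, a mean of 122 ± 21.2 (SD, n = 2). The IDR was 1e-05 in replicate 1, the lowest value the deposited column holds, and 3.54e-05 in replicate 2. Each of these IDRs comes from 1 replicate's own list. Both signals stand far above the other members in the same lists, whose highest signals were 29.5 and 32.1, both at nars-1. The replicate 1 peak, chrIV:390438-390538, ranked number 9 of 258, and the replicate 2 peak, chrIV:390361-390636, number 19 of 227. The replicate summits lay 2 and 7 bp from that of the larger list.

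The ears-2 peak was 113 bp wide in the larger list, whereas the usual width there was 304 bp. Of the 548 passing peaks 15 had another width than the usual one and 5, that of ears-2 included, were at most as wide as it. The highest candidate of the other 30 members with a candidate had the usual width, as did that of 99.9% of all genes. The ears-2 window had a second candidate at chrIV:390892-391195 with a signal of 17.5 and an IDR of 0.821. Within 5000 bp of the summit there were 11 other candidates, and the highest of them, chrIV:385408-385711 near the start of the ribosomal protein gene rps-24, passed with a signal of 105. The nearest annotated small RNA gene, a snoRNA gene, was 16889 bp away.

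The ears-2 window was rich in G and C. Within 50 bp either side of its summit 60.4% of bases were G or C, where the median was 42.6% over the members' windows and 39.6% over the windows of all genes. Windows at least as rich made up 1.62% of those of all genes, and the median over passing peaks was 50.5%. The next member, mars-2, had 59.4% with a signal of 34.8.

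No other member passed in any thresholded set. Near transcript starts the conservative set had peaks for 1.83% of all protein-coding genes, the replicate 1 set for 1.12% and the replicate 2 set for 0.886%, and in each of them ears-2 was the 1 member with a peak. With the wider limit of an IDR of at most 0.05 in the larger list, 2 of 33 members were reached, ears-2 and nars-1, beside 4.95% of all genes. No candidate of a member reached an IDR of 0.01 without being in the larger set, whereas 124 candidates in all did. An IDR of 0.01, the limit used here, thus does not by itself define that set.

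Without a limit on the IDR nearly every gene has something in a ranked list, and the members were no exception. A candidate of the larger list had its summit near a transcript start, at most 2000 bp before it or 500 bp past it, for 31 of 33 members and for 90.1% of all protein-coding genes. The members without one were dars-2, the mitochondrial aspartate enzyme's gene, and iars-1, the cytosolic isoleucine enzyme's gene. The other members had 134 candidates between them.

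**Figure D2:**
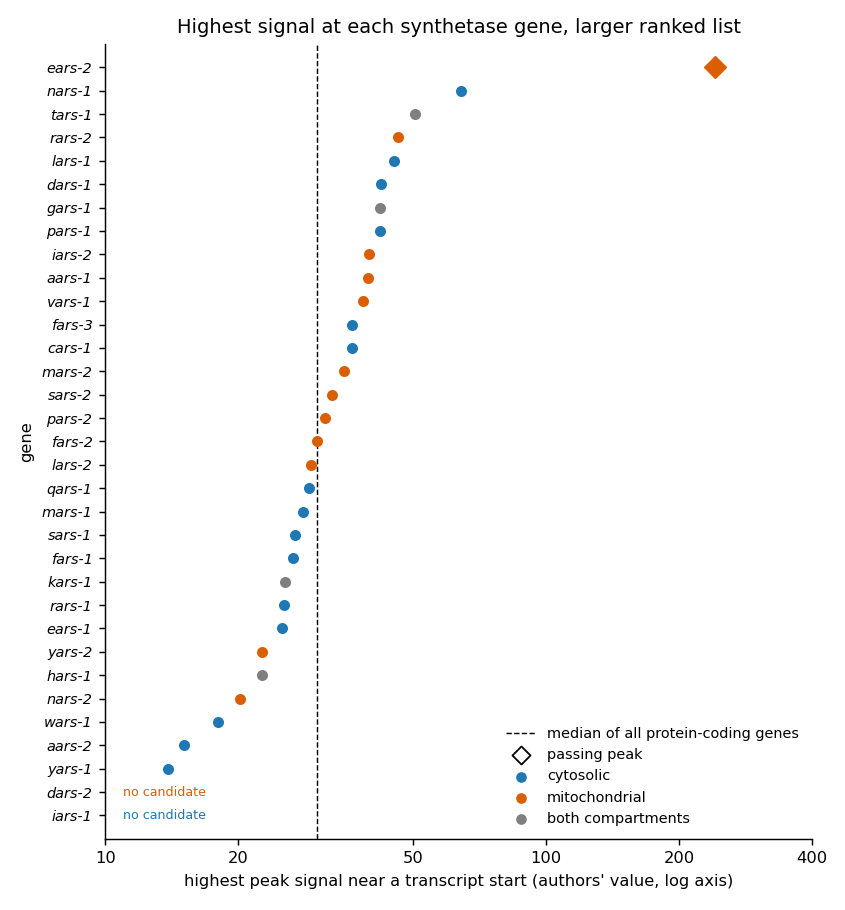
Highest peak signal (authors' value, log axis) near a transcript start of each of the 33 genes in the larger list, coloured by compartment, with the median of all protein-coding genes as a dashed line. ears-2 at 242 stands apart, and the others lie between 13.9 and 63.9 on both sides of the line.

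The highest signals of the members ran from 13.9 to 242 with a median of 31.4 and quartiles of 25.5 and 40.8. Over the 17997 genes with a candidate the median was 30.2 and the quartiles 23.5 and 37.9. At or above the all-gene median were 16 of the 31 members. ears-2 was 3.78 times the next member and 7.70 times the member median, and without it the member median was 30.8.

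nars-1, which codes for the cytosolic asparagine enzyme, had the second highest signal. Its candidate at chrI:7090312-7090615, 402 bp upstream, had a signal of 63.9 and an IDR of 0.0224, which is above the limit of 0.01. The gene was number 497 of 17997, and the site also lay in the window of nduf-6, a gene for a subunit of respiratory complex I. The highest signal of nars-1 was 29.5 in replicate 1 and 32.1 in replicate 2, a mean of 30.8 ± 1.85 (SD, n = 2). At these sites the replicate lists gave an IDR of 0.894 and 0.303.

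The next members had IDRs far from the limit. tars-1, whose gene serves threonine in both compartments, had a signal of 50.4 (IDR 0.0888) at chrII:11694493-11694796, in an intron. The summit was 352 bp upstream of a start that lies inside the gene. It also lay in the windows of kel-1 and xpf-1. The highest signal of tars-1 was 23.4 in replicate 1 and 22.6 in replicate 2, so the replicates were close. rars-2, for mitochondrial arginine, had 46.1 (IDR 0.111) at chrII:6125091-6125394, 316 bp upstream, with 25.9 in replicate 1 and 17.9 in replicate 2. The replicates of rars-2 lay further apart, with an SD of 5.67 where that of tars-1 was 0.528 (n = 2 each). lars-1, for cytosolic leucine, had 45.2 (IDR 0.146) at chrIII:4186430-4186733, in a coding exon 219 bp downstream, with 22.9 and 16.2 in the replicates. dars-1, for cytosolic aspartate, had 42.1 (IDR 0.608) at chrIII:9491385-9491688, 322 bp upstream, with no candidate in replicate 1 and 31.1 in replicate 2. From rars-2 to dars-1 the larger list's signals differ by less than the replicates of rars-2 or lars-1 do, so their order is not resolved.

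At the other end, yars-1 for cytosolic tyrosine had 13.9, aars-2 for cytosolic alanine 15.1 and wars-1 for cytosolic tryptophan 18.01. The aars-2 gene had no candidate in either replicate's list, like dars-2 and iars-1. yars-1 had a candidate of 10.2 in replicate 1 and none in replicate 2, whereas wars-1 had one of 13.4 in replicate 2 and none within its window in replicate 1. The low rank of wars-1 depends on the edge of the window. A replicate 1 candidate of 21.5 and one of 38.7 in the conservative list overlap its site with summits more than 500 bp past the start. The remaining 22 members lay between 20.2 and 42.1.

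**Figure D3:**
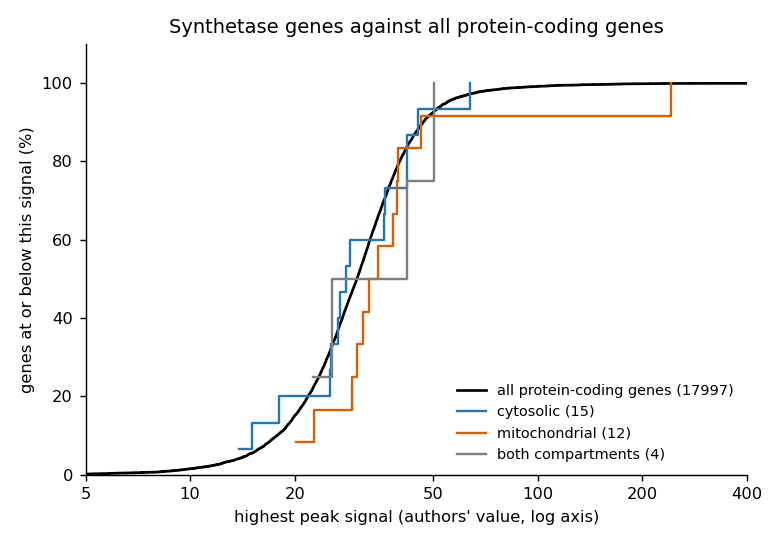
Share of genes (vertical axis, %) whose highest peak signal (horizontal axis, authors' value, log scale) is at or below a value, for all protein-coding genes and for the synthetase genes by compartment. The curves of the 3 compartment classes run along both sides of that of all genes, and ears-2 at 242 ends the mitochondrial curve.

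The genes were then compared by the compartment their enzymes serve. The median highest signal was 28.0 over 15 cytosolic genes, 33.7 over 12 mitochondrial genes and 33.8 over the 4 that serve both. These medians lie at percentiles 42.4, 62.6 and 62.9 of all genes. The search windows of the 3 classes have medians of 2504, 2977 and 3356 bp in the same order. The part of this in the signals was not tested. The cytosolic signals ran from 13.9 to 63.9 and the mitochondrial ones from 20.2 to 242, so the classes overlap. The difference of medians, cytosolic minus mitochondrial, was -5.71 in the larger list, -2.77 in the replicate 1 list and -0.87 in the replicate 2 list. With only the 5′-most start of each gene it was -6.86 in the larger list. Without ears-2 it was -4.64 in that list, and with only the genes whose compartment RefSeq names it was -11.9. RefSeq names 9 cytosolic and 5 mitochondrial genes, but iars-1, a cytosolic one, had no candidate and did not enter that median. The compartments taken from known roles are less certain, those of yars-1 and tars-1 most of all. No test was made, since the classes share 1 pair of libraries and genes are not replicates.

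Set side by side for the same amino acid, the enzymes showed no single order. For 12 amino acids the members include a gene of its own for each compartment, and 10 could be compared in the larger list. The mitochondrial enzyme's gene had the higher signal for 6 of them and the cytosolic one for 4. For phenylalanine the cytosolic value was the higher of the subunit genes fars-1 and fars-3, and fars-1 alone was below fars-2. In replicate 1 the counts were 2 and 3 of 5 compared, and in replicate 2 they were 4 and 3 of 7. A pair with a candidate at only 1 side was not counted. In replicate 1 only the mitochondrial gene had a candidate for alanine, glutamate, isoleucine and serine, and only the cytosolic gene for tyrosine. In replicate 2 it was only the mitochondrial gene for alanine, isoleucine and tyrosine, and only the cytosolic gene for asparagine and aspartate. For 4 amino acids all 3 lists could be compared and gave the same order, and these were evenly divided. The larger list was made from both replicates, so the 3 lists are not independent. In replicate 2 the gaps were small for methionine (mars-2 16.1, mars-1 15.8) and leucine (lars-1 16.2, lars-2 15.4). The values that follow are those of the larger list. For arginine, rars-2 had 46.1 and rars-1 25.4, and for methionine, mars-2 had 34.8 and mars-1 28.0. For leucine, lars-1 had 45.2 and lars-2 29.2, and for proline, pars-1 had 42.0 and pars-2 31.4.

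The widest gap was that of glutamate, where ears-2 had 242 and the cytosolic gene ears-1 had 25.2 with an IDR of 0.640. In replicate 2 the pair had 107 and 15.0, and in replicate 1 ears-1 had no candidate. The reverse order was seen for asparagine, where the cytosolic gene nars-1 had 63.9 and the mitochondrial gene nars-2 had 20.2. Of the phenylalanine genes the subunit genes of the cytosolic enzyme, fars-1 and fars-3, had 26.7 and 36.3, and the mitochondrial gene fars-2 had 30.1.

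**Figure D4:**
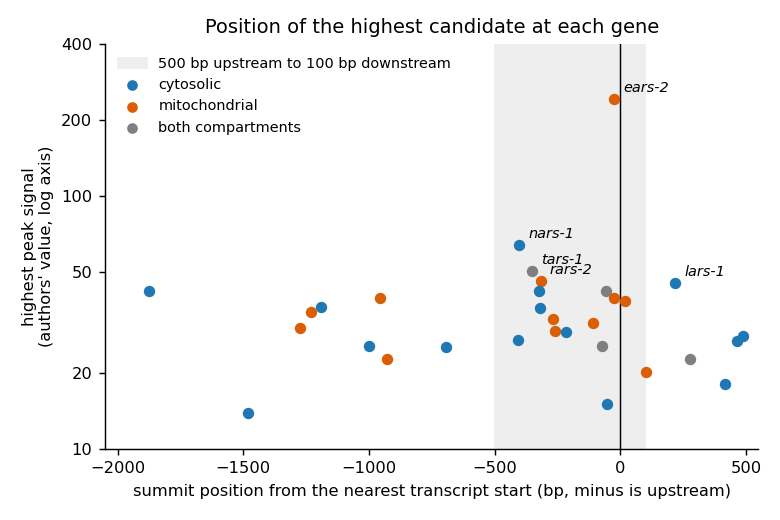
Summit position of the highest candidate from the nearest transcript start (horizontal axis, bp, minus is upstream) against its signal (vertical axis, authors' value, log scale) for the 31 genes with a candidate, coloured by compartment. The shaded band, 500 bp upstream to 100 bp downstream, holds 16 of the 31 points, among them ears-2, nars-1, tars-1 and rars-2.

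The highest candidate lay close to an annotated start at many of the members. Its summit was at most 500 bp before or 100 bp past one at 16 of 31 members (51.6%), beside 28.9% of all genes with a candidate. At tars-1, gars-1, qars-1, lars-2 and pars-2 that start lies inside the gene, and so does the summit. Such cases were not counted over all genes, so the shares are not of closeness to the 5′-most start alone. In the related groups described further below the share was 54.7% for cytosolic ribosomal protein genes, 34.4% for mitochondrial ones and 43.3% for genes of tRNA biology. The members have a median of 2 annotated starts and all genes 1, and their search windows have medians of 2512 and 2501 bp, and the part of this in the difference was not tested. The candidate lay in an exon at 14 members (45.2%), in an intron at 8 (25.8%) and outside protein-coding genes at 9 (29.0%), where the shares over all genes were 34.8%, 20.7% and 44.5%. It was shared with the window of another gene at 17 members (54.8%, beside 39.4%), so at those a signal cannot be assigned to the synthetase gene rather than its neighbour. Sharing was seen at 77.3% of the cytosolic and 56.25% of the mitochondrial ribosomal protein genes and at 53.3% of the genes of tRNA biology. Of the 31 none lay within 250 bp of an annotated small RNA gene (rRNA, snoRNA, snRNA or tRNA), beside 1.73% of all genes. No member is on the X chromosome, which holds 13.7% of protein-coding genes. That chromosome also holds only 2.63% of the cytosolic and 0% of the mitochondrial ribosomal protein genes, and 6.67% of the genes of tRNA biology.

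**Figure D5:**
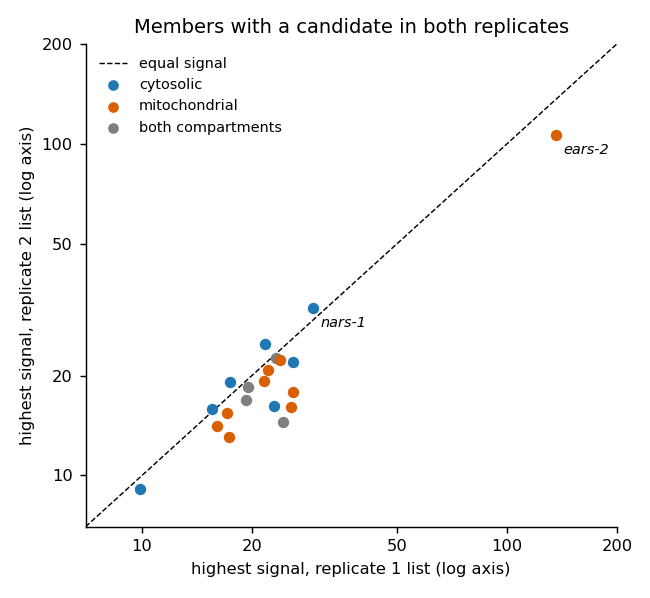
Highest peak signal in the replicate 1 list (horizontal axis) against that in the replicate 2 list (vertical axis), both authors' values on log axes, for the 20 genes with a candidate in both lists, coloured by compartment. The dashed line marks equal signal; 16 genes lie on the replicate 1 side of it, and ears-2 and nars-1 are highest in both.

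The 2 replicates gave the members similar signals, but not always at the same place. A candidate in both replicates' lists was found for 20 members, and 16 of these (80.0%) were higher in replicate 1, as were 56.0% of 10490 such genes in all. The median log2 ratio of replicate 1 to replicate 2 was 0.16 over the members and 0.08 over all genes, and its median size regardless of sign was 0.17 and 0.38. The highest candidate of the larger list was overlapped by a candidate in replicate 1 at 20 of 31 members, in replicate 2 at 17, in both at 12 and in neither at 6. In replicate 1 there was no candidate at 11 members and in replicate 2 at 5. The median highest signal of the members was 21.9 in replicate 1, where all genes had 19.1, and 17.4 in replicate 2, where all genes had 18.1, so the members lay above the background in 1 replicate and below it in the other.

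Words were counted on both strands within 50 bp either side of each highest summit. The goosecoid word TAATCC was in 0 of 31 members' windows, beside 3.41% of the windows of all genes and 2.55% of those of passing peaks. GCGCAA was in 3 (ears-2, pars-2 and rars-1), beside 3.45% and 10.2%. GTTCGA, part of the internal promoter of tRNA genes, was in 0, beside 3.77% and 16.2%. GGGCGG was in 1 (qars-1), beside 3.46% and 8.03%, and TGATGNAA, where N is any base and which the ATF4 family of the amino acid response is known to bind, was in 1 (cars-1), beside 2.19% and 1.64%. A match says only that the letters are there.

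CGCAA, which overlaps GCGCAA, was added after the ears-2 sequence had been seen and is a description of it. It was in the windows of 11 of 31 members (35.5%), beside 14.6% of all genes and 27.7% of passing peaks. Among candidates within 500 bp upstream and 100 bp downstream of a start it was in 7 of 16 members' windows (43.8%) and in 17.1% of all. The ears-2 window holds 3 copies, and 48 of 17997 windows (0.267%) hold as many or more. At least 2 copies were in the windows of 3 members and in 1.96% of all. A pair of copies in the same direction 17 bp apart, as in ears-2 and qars-1, was in the windows of 15 genes, which share 8 distinct summits, and of 3 passing peaks. This spacing too was picked after the sequences had been seen, and other spacings were nearly as frequent. Pairs 4 or 14 bp apart were at 7 distinct summits each, and pairs 3, 9 or 18 bp apart at 3 passing peaks each. The ears-2 window also has pairs 40 and 62 bp apart.

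Genes of related function were set beside the synthetases in the larger list. Of 76 cytosolic ribosomal protein genes 11 had a passing peak (14.5%), with a median highest signal of 38.9 over those with a candidate. Of 66 mitochondrial ribosomal protein genes 4 had one (6.06%), with a median of 29.5. Among 30 genes for tRNA modification, tRNA processing, RNA polymerase III, elongation factors and the response to uncharged tRNA, 2 had one (6.67%) and the median was 36.6. The synthetases stood at 1 of 33 and 31.4. Of the genes with a candidate, 6.67% of the cytosolic and 7.81% of the mitochondrial ribosomal protein genes had the highest one within 250 bp of an annotated small RNA gene. The share was 0% for the 30 genes and for the synthetases. The part of those small RNA genes in the shares of passing peaks was not tested.

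The 2 passing genes of tRNA biology were mtcu-2 and elpc-4. mtcu-2, for modification of mitochondrial tRNAs, had a peak at chrII:10033529-10033832, 468 bp upstream, with a signal of 202 and an IDR of 0.000252. Its signal was 102 in replicate 1 and 94.8 in replicate 2, and like ears-2 it was in all 4 thresholded sets. elpc-4, a gene of the Elongator complex that modifies the wobble uridine of tRNAs, had 90.8 (IDR 0.00173) at chrIV:8015697-8016000, 1145 bp upstream, and was absent from the replicate 2 set. Next came hoe-1, for the nuclease that trims tRNA 3′ ends, with 59.0 (IDR 0.0182), and the elongation factor gene eef-1A.2 with 56.8 (IDR 0.623), and neither passed. Synthetase genes outside the naming rule, glp-4 for valine, K03B4.1 for serine and prx-10, for which RefSeq lists a mitochondrial tryptophan enzyme among its products, had 36.4, 27.6 and 23.8, and none of them passed in any set.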

How the data were processed

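The authors deposited peak lists on build ce11: a larger and a conservative pair for the series and 1 pair for each replicate, each pair being a ranked list and a thresholded set. The signal is the authors' deposited peak value, and nothing states how it was scaled to depth or to a control. IDR values came from the −log10 column deposited by the authors, whose ceiling of 5 is an IDR of 1e-05. Which aligner and caller made the lists is not given in the sources used here. A control is named but was not analysed here.

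Members were matched by Ensembl release 115 symbol (32) or RefSeq symbol only (1, mars-2). A candidate belonged to every protein-coding gene with its summit at most 2000 bp before or 500 bp past a transcript start; passing needed a peak of the thresholded set there. The larger list was the main one. Ranks and medians were set beside all protein-coding genes of the same list. The assignment was tested on simulated peaks. Words were counted within 50 bp of a summit. Every member could be named; full values were given by signal rank and threshold, of the tRNA list for those passing and the next 2. All 30 listed symbols were found. With 1 group no test was made. The members and lists were chosen with earlier results of these data known. Python 3.11.15, numpy 2.4.6 and matplotlib 3.10.9 were used.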

Additional observations from a re-analysis of the deposited data

How the results depend on the processing

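Of 17 alternative settings 12 were planned and 5 were chosen after seeing the data, and the compartment difference kept its sign in those that recomputed it. The number of members with a passing peak was 1 at an IDR of at most 0.001 (0.451% of all genes), with narrower windows (1.08%), with the 5′-most start (1.96%) or the nearest start only (1.47%), without peaks near small RNA genes (1.64%), with a stricter overlap (2.14%), in the conservative set (1.83%), and without replicate 2 (1.12%) or replicate 1 (0.886%). At an IDR of at most 0.05 it was 2 (4.95%). The member median ran from 17.4 to 21.9 when either replicate was left out, where all genes had 18.1 and 19.1. The members thus lay below all genes without replicate 1 and above them in the other settings. The compartment difference then ran from -2.77 to -0.87. It was -7.08 with the nearest start only and -11.9 with the compartments that RefSeq names. RefSeq names 9 cytosolic and 5 mitochondrial genes, of which the cytosolic iars-1 had no candidate and did not enter. With genes lacking a candidate counted at 0 the median was 30.1 for the members and 28.6 for all genes. No paired analysis was possible because there is 1 group. With 2 replicates and no read counts, small differences in signal cannot be resolved.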
